A study of Rattus norvegicus with 4 samples.

Results

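The genes described here encode the proteins of the extracellular matrix, the enzymes that cross-link and cut them, and the integrins that hold cells to them, as measured in rat liver on Illumina expression arrays. They were chosen by symbol alone, as the genes whose name begins as that of a collagen chain, a laminin chain, a matrix metalloproteinase, a tissue inhibitor of metalloproteinases, a lysyl oxidase or an integrin subunit. The rule found 93 of 21597 genes: 31 collagen chains, 8 laminin chains, 5 lysyl oxidases, 22 metalloproteinases, 3 inhibitors and 19 integrin subunits. The other 5 members are genes only named after a collagen or an integrin (Col4a3bp, Itgb1bp1, Itgb1bp2, Itgb3bp and Itgbl1).

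The livers came from male Wistar rats aged 4 months. Control offspring and prenatally undernourished offspring, which the labels call FR30, had been kept on a standard or a high-fat diet. Each of the 4 groups has 1 deposited sample, named below by offspring and diet (control standard, control high-fat, FR30 standard, FR30 high-fat), and lists of 4 signals keep that order. The labels do not say how many animals a sample holds, what the diets were made of or when they were given. With 1 sample a group, no difference below has a replicate check, and no test was made.

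Collagens are triple helices that give a tissue its tensile strength. The fibril-forming types lie between cells and around vessels, while type IV collagen joins with laminins in basement membranes. Lysyl oxidases cross-link collagen and elastin, metalloproteinases cut matrix proteins, and the Timp proteins inhibit the metalloproteinases. Integrins are receptors made of an alpha and a beta chain that bind matrix outside the cell and the cytoskeleton inside. In liver most fibrillar collagen is made by stellate cells and portal fibroblasts, and a rise in collagen, Lox and Timp1 is a known feature of fibrosis.

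Each value is a deposited signal with its deposited STDEV, whose number of measurements is not stated. A gene counted as detected at a detection p-value under 0.05, and 9226, 9001, 9095 and 9206 genes were detected in the 4 samples. All 7 hepatocyte markers on the array list were detected in every sample. The FR30 standard sample stood apart: for 114 of the genes detected in it the STDEV exceeded 20% of the signal, a width that 1 gene had in control standard and 0 in either high-fat sample. In that sample the summed signal of 9 adipocyte markers was 10599, against 3488.1 to 4102.8 in the other samples, and that of 8 skeletal muscle markers was 2132, against 1339.9 to 1396.9. The authors' non-normalized table did not show this, with adipocyte sums of 3122.5 in FR30 standard and 3252.5 to 4589 elsewhere. For many of the results that rest on this sample, values from the non-normalized table are given as well.

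Of the 93 members, 34 were detected on all 4 samples, 12 on some and 47 on none. That is 36.6% detected throughout, against 39.2% of all genes. Most measured members differed little between samples. The median log2 difference, taken after background correction, was -0.02 for high-fat minus standard diet in control offspring and 0.00 in FR30 offspring. For FR30 minus control it was 0.00 on the standard diet and 0.04 on the high-fat diet. The same medians over all genes were 0.01, 0.00, 0.00 and -0.01. The median size of a difference, regardless of sign, lay between 0.13 and 0.17 for the members and between 0.12 and 0.15 for all genes.

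With high-fat diet in control offspring, 3 of 40 members compared were at least 1.5-fold apart, 2 higher and 1 lower, where 5.9% of all genes were (2.55% higher, 3.35% lower). With high-fat diet in FR30 offspring it was 5 of 44, 2 higher and 3 lower, against 7.13% of all genes (3.77% higher, 3.36% lower). Between FR30 and control offspring on the standard diet it was 6 of 43, 3 in each direction, against 4.31% (2.11% higher, 2.2% lower). On the high-fat diet it was 3 of 39, all lower in FR30, against 3.38% (1.82% higher, 1.56% lower). These counts are small. Of the 19 member calls made in these comparisons and in the difference between the diet differences, 11 were lost with a larger offset in the background correction. The differences of Lox in every comparison, of Itga1 on the standard diet and of Mmp14 on the high-fat diet were called under all 8 alternative settings.

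**Figure D1:**
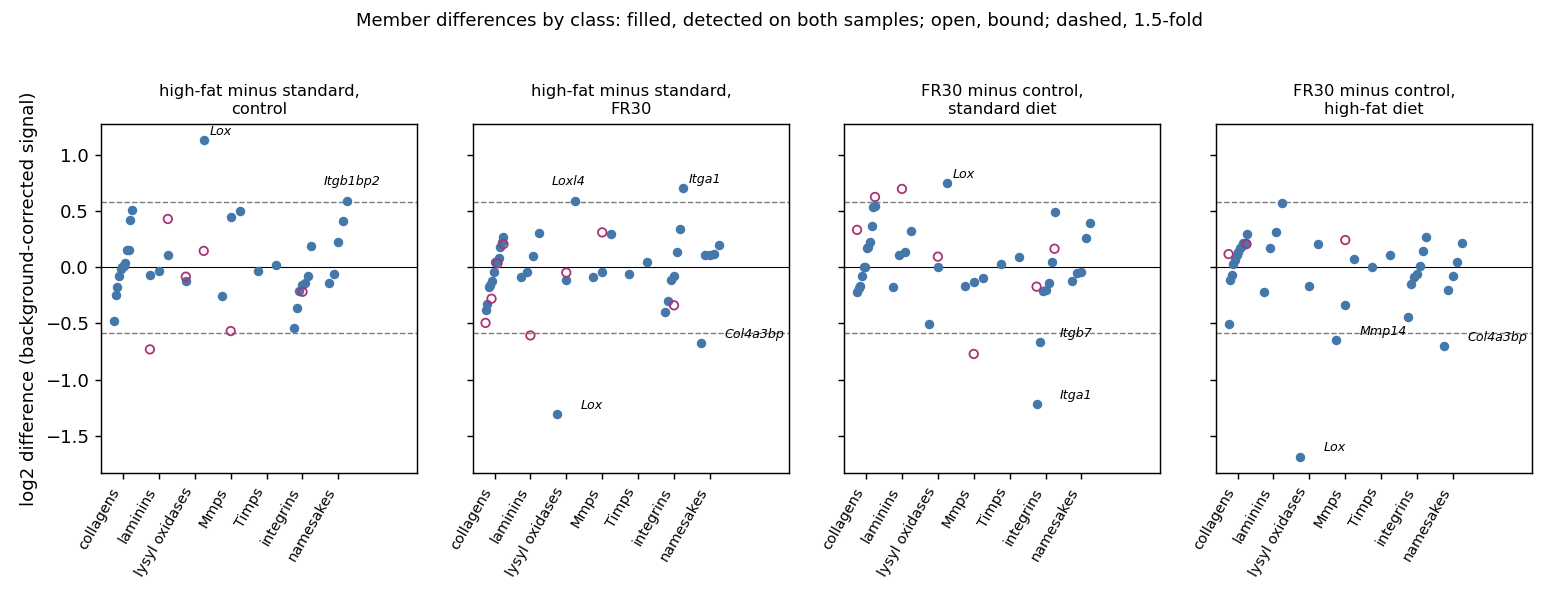
Log2 difference (vertical axis, background-corrected signal) of each member by class (horizontal axis) in 4 comparisons of 1 sample with 1 sample; filled points were detected on both samples, open points are bounds, with no name, and dashed lines mark 1.5-fold. Most members lie between the lines, and Lox lies outside them in all 4 panels.

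Lox encodes lysyl oxidase, the copper enzyme that starts the cross-linking of collagen and elastin fibres. Its deposited signal was 2564.8 with a STDEV of 58.2 in control standard and 5495.9 with a STDEV of 59.4 in control high-fat. In FR30 standard it was 4235.2 with a STDEV of 209.6, and in FR30 high-fat 1789.2 with a STDEV of 47.3. Thus the highest signal was in control offspring on the high-fat diet and the lowest in FR30 offspring on the same diet, and no intervals of 2 STDEV overlapped.

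The high-fat diet went with a 2.19-fold higher Lox signal in control offspring and a 2.48-fold lower one in FR30 offspring. FR30 offspring had 1.68 times the control signal on the standard diet and a 3.22-fold lower one on the high-fat diet. These 4 values share their samples in pairs and are not separate results. In log2 terms the diet differences were 1.13 and -1.31, which puts them 2.44 apart. Of 8460 genes detected on all 4 samples, 18, Lox included, had diet differences at least as far apart. Among 9158 genes compared in both diet comparisons, 31 (0.339%) differed at least 1.5-fold in opposite directions, and Lox was the 1 member among them.

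The non-normalized table gave the same pattern for Lox. Its 4 signals there were 2345.9, 5700.8, 3600.3 and 2153.0. After background correction and normalization these gave log2 diet differences of 1.14 in control and -1.34 in FR30 offspring. The log2 differences of FR30 minus control were 0.79 on the standard and -1.69 on the high-fat diet. The adipocyte and muscle marker sums had another order in the normalized table, with FR30 standard highest. Their part in the Lox values was not tested.

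The other lysyl oxidases were near background. Loxl4, a second cross-linking enzyme, read 207.7, 201.7, 184.2 and 212.3 in the 4 samples in the order above. It was low in FR30 standard, and its log2 difference with diet in FR30 offspring was 0.59, which is 1.502-fold, and 0.55 in the non-normalized table. Loxl1, whose substrate is mainly elastin, read between 169.6 and 177.6, with a detection p-value averaged over probes. Loxl3 read between 179.1 and 183.6 and Loxl2 was not detected. The 4 Loxl1 signals ranked as those of Lox did, but its log2 differences and bounds lay between -0.16 and 0.15.

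**Figure D2:**
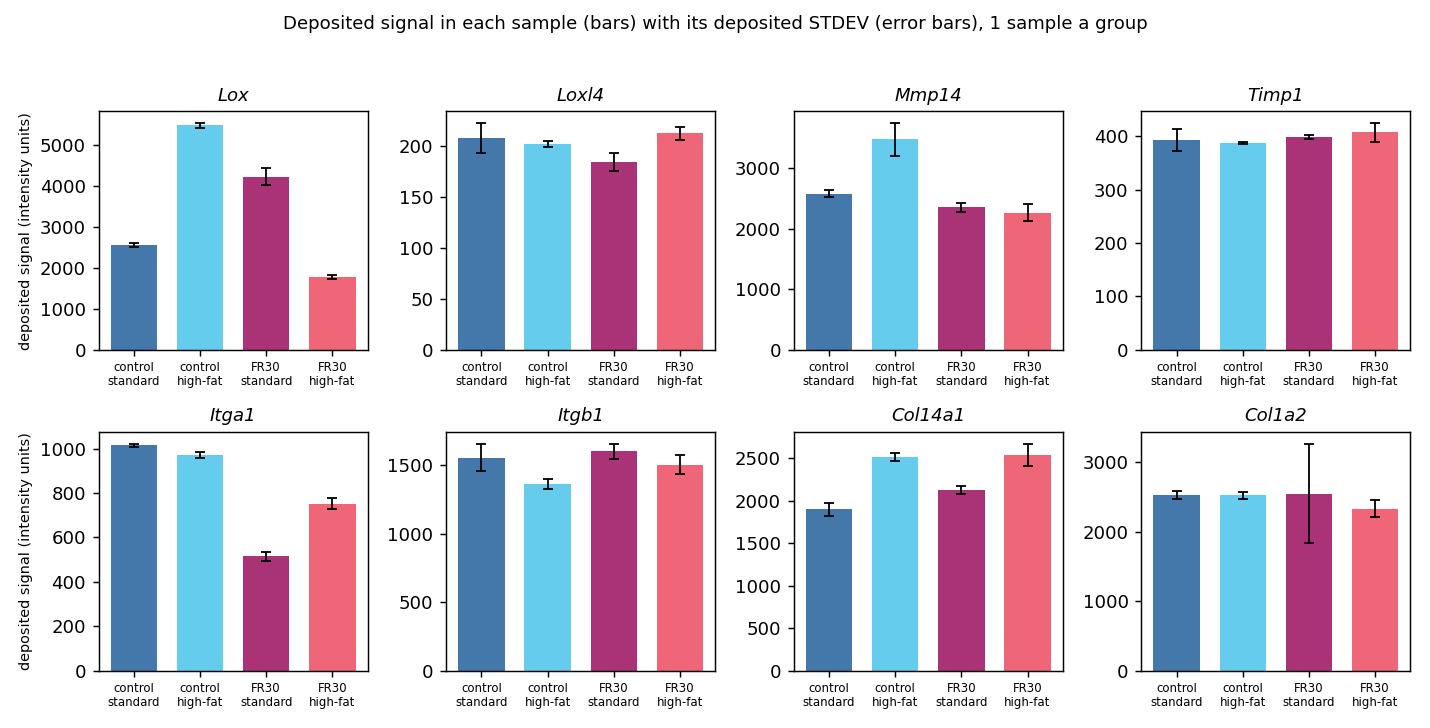
Deposited signal (vertical axes, intensity units, from 0) of 8 members in the 4 samples (horizontal axes), with the deposited STDEV as error bars and 1 sample a group. Lox is highest in control high-fat and lowest in FR30 high-fat, Itga1 is lowest in FR30 standard, and Col1a2 has a wide STDEV in FR30 standard alone.

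The fibril-forming collagens detected on all samples were Col1a2, Col3a1, Col5a1, Col5a2, Col11a2 and Col27a1. Col1a2, the alpha 2 chain of type I collagen, read 2528 in control standard, 2525.5 in control high-fat, 2548.3 in FR30 standard and 2329.8 in FR30 high-fat. The signals were alike, but the STDEV was 718 in FR30 standard against 50.3 to 124 elsewhere. Col3a1, the type III chain found with type I in reticular fibres, read 795.5, 762.6, 1101 and 903.3. It was highest in the FR30 samples, with log2 differences of FR30 minus control of 0.54 on the standard and 0.29 on the high-fat diet, and of 0.42 and 0.28 in the non-normalized table. Both are under 1.5-fold.

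Col5a1 and Col5a2, the type V chains that set fibril diameter, stayed close to level. Col5a1 read 462.3, 424.8, 415.7 and 454.2, and Col5a2 read 349.7, 350.9, 377.6 and 384.8. Col11a2, of the type XI collagen of cartilage, read 203.7, 212, 235.7 and 224.2. Its log2 difference of FR30 minus control on the standard diet was 0.55, and 0.60 in the non-normalized table, where it passed 1.5-fold. Col27a1, a fibrillar collagen known from cartilage, read 245.6, 215.4, 234.4 and 211.4, lower on the high-fat diet in both offspring groups by log2 differences of -0.47 and -0.38, and of -0.44 and -0.46 in the non-normalized table.

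Col1a1, the partner of Col1a2 in type I collagen, was detected in FR30 standard only. It read 166.4, 169.1, 196.5 and 173.2, with a STDEV of 56.9 in FR30 standard. This gives a bound of at least 1.54-fold higher in FR30 than in control on the standard diet. In the non-normalized table it was detected in no sample, with a detection p-value of 0.252 in FR30 standard. Its call was lost under 6 of the 8 alternative settings.

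Wide STDEVs in the FR30 standard sample were frequent among the matrix genes. Of 41 members detected there, 6 had a STDEV over 20% of the signal, which is 14.6%, against 1.25% of all genes detected in that sample. They were Col15a1, Col1a1, Col1a2, Col4a1, Lamb1 and Lamb2, with STDEVs between 24.5% and 38% of the signal. No member had so wide a STDEV in any other sample. Just below that limit were Itga7 at 18.2%, Col6a3 at 17.1% and Col3a1 at 12.2%. The adipocyte and muscle markers with wide STDEVs in the same sample numbered 7 of 9 and 6 of 8, and their part in the matrix values was not tested.

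The non-normalized table moved these members downwards in FR30 standard. The log2 difference of FR30 minus control on the standard diet was 0.00 for Col1a2 in the normalized table and -0.28 in the other. For Col4a1 it was 0.37 and 0.01, for Lamb1 0.32 and -0.06, and for Lamb2 0.14 and -0.23. Itga7, just below the limit, moved from -0.14 to -0.39. Lox and Itga1, whose STDEVs in FR30 standard were 4.95% and 3.97% of the signal, moved from 0.75 to 0.79 and from -1.22 to -1.18.

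**Figure D3:**
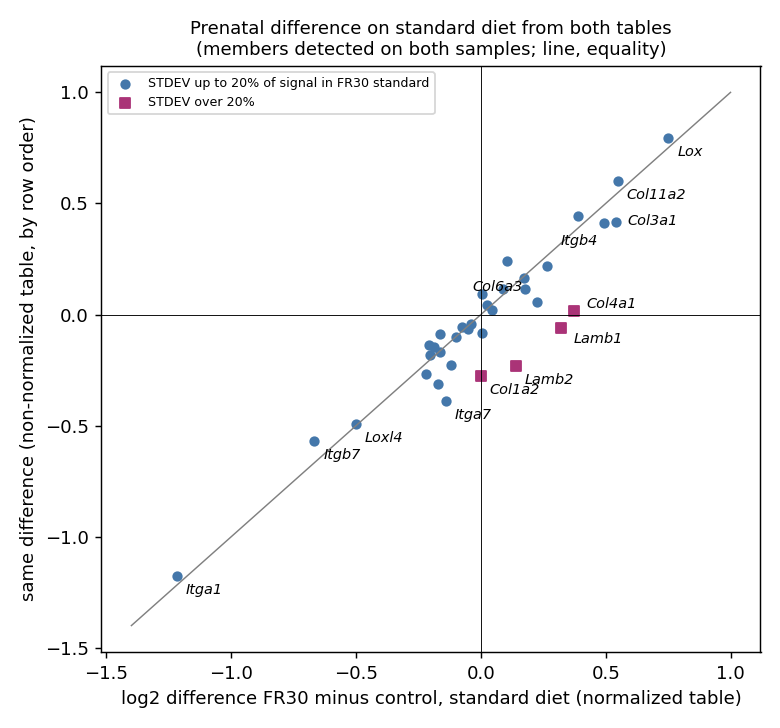
Log2 difference of FR30 minus control on the standard diet from the normalized table (horizontal axis) and from the non-normalized table matched by its row order (vertical axis), for members detected on both samples; squares mark a STDEV over 20% of the signal in FR30 standard and the line is equality. The 4 squares lie below the line, while Lox at 0.75 and 0.79 and Itga1 at -1.22 and -1.18 lie on or near it.

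In the basement membrane, Col4a1, the main type IV chain, read 383.7 in control standard, 411.2 in control high-fat, 455.9 in FR30 standard and 424.8 in FR30 high-fat. The FR30 standard value had a STDEV of 120.3, which covers the other samples. Col4a2, its partner, was not detected, and Col4a4, of the kidney network, only just in FR30 high-fat. Col18a1, the source of endostatin and in liver made largely by hepatocytes, read 3305.5, 2818.2, 2940.5 and 3024.1. It was highest in control standard, with log2 differences of -0.25 with diet and -0.19 with FR30. Col15a1, its relative, passed detection in FR30 standard only, at 182 with a STDEV of 69.1, and was not detected there in the non-normalized table.

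Laminins are trimers of 1 alpha, 1 beta and 1 gamma chain. Lama2, Lamb1 and Lamb2 were detected throughout and differed by less than 0.33 in log2 in each of the 4 comparisons of the normalized table. With diet in FR30 offspring, Lamb1 differed by -0.04 there and by 0.35 in the non-normalized table, and Lamb2 by 0.10 and 0.44. Lama2 read 243.6, 240.5, 231.1 and 225.6, Lamb1 340.5, 358.2, 392.4 and 384.1, and Lamb2 321.9, 313.3, 343.9 and 356.4. Lamc1, the gamma chain of most laminins, read 202.7 and 208.3 in the standard diet samples of control and FR30 offspring and 167.9 and 179.7 in the high-fat ones, where it was not detected. After background correction this gave bounds of 1.66-fold lower with the high-fat diet in control and 1.52-fold lower in FR30 offspring. The log2 bounds were -0.41 and -0.71 in the non-normalized table. The call in control offspring was kept under 4 of the 8 alternative settings and that in FR30 offspring under 5, so these bounds depend on the processing.

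Among the other collagens, Col14a1, a fibril-associated collagen, was higher on the high-fat diet in both offspring groups. It read 1898.8 in control standard and 2513.7 in control high-fat, and 2127.7 in FR30 standard and 2539.1 in FR30 high-fat. The folds were 1.34 and 1.21, under the threshold, and the log2 differences of 0.42 and 0.27 became 0.42 and 0.30 in the non-normalized table. Col6a1 and Col6a3, chains of the beaded filaments of type VI collagen, read 647.4, 662.2, 649.9 and 733.5, and 998.2, 1001.5, 1144.6 and 1114.6. Col8a1, of vessel walls, was high in control high-fat alone, at 288.5 against 238.1 to 243.8, with a log2 difference of 0.51 from control standard and of -0.50 between FR30 and control on the high-fat diet. The 15 undetected chains included Col2a1, the 3 type IX chains and Col17a1.

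Most metalloproteinases were not detected: 17 of 22 passed in no sample, among them the gelatinases Mmp2 and Mmp9. Mmp14, the membrane-bound enzyme that cuts type I collagen and activates pro-Mmp2, read 2580.3 with a STDEV of 50.8 in control standard and 3475.3 with a STDEV of 273.5 in control high-fat. In FR30 standard it read 2351.7 with a STDEV of 75.4, and in FR30 high-fat 2267.4 with a STDEV of 133.5. Control high-fat was the high sample. The signal was 1.36-fold higher with diet in control offspring, with a log2 difference of -0.04 in FR30 offspring, and 1.57-fold lower in FR30 than in control on the high-fat diet. Mmp14, like Lox, was highest in control high-fat, but its FR30 samples lay within 1 STDEV of each other, and in FR30 standard its log2 difference from control was -0.17 where that of Lox was 0.75.

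Mmp16, a relative of Mmp14, read 190.1, 214.6, 184.1 and 198.2, higher on the high-fat diet by 0.50 and 0.30 in log2. Mmp19 read 314.8, 287.5, 304 and 294.4. Mmp12, the macrophage elastase, was detected in control standard only, at 203.3 against 157.5 to 176.8 in the other samples. After background correction this gave a bound of 1.71-fold lower in FR30 than in control on the standard diet. The non-normalized table puts that bound at -0.41 in log2, and the call was kept under 4 of the 8 alternative settings. The 7 macrophage markers on the array were detected in all samples, with sums of 4194.4 to 4782.7 and the lowest in control standard. Mmp13, a collagenase, passed detection only in FR30 high-fat, at 193.7.

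The inhibitors were level. Timp1 read 392.6, 387.1, 398.4 and 407.3, and Timp2 read 194.9, 195.6, 199.4 and 196.4. Their log2 differences lay between -0.06 and 0.11 in the 4 comparisons. Timp3 was not detected. In whole tissue, fewer cells of a type and less RNA per cell cannot be told apart. Of 9 stellate cell and myofibroblast markers on the array, 7 were detected in every sample and Hand2 and Rgs5 in none. They summed to 19863, 16968, 17078 and 19183, most of it Dpt, at 16821.9, 13714.1, 13821.3 and 15292.3. Other markers of the list had other orders: Reln read 1586.8, 1786.9, 1769.5 and 2402.2, and Des 224.6, 215.4, 239.3 and 199.1. Their part in the matrix values was not tested.

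Among the receptors, Itga1, the alpha 1 chain of a collagen and laminin receptor found on stellate and endothelial cells, differed most. It read 1016.2 with a STDEV of 6.65 in control standard, 971.5 with a STDEV of 13.7 in control high-fat, 515.2 with a STDEV of 20.5 in FR30 standard and 751.6 with a STDEV of 24.8 in FR30 high-fat. Both FR30 samples were below both control samples. FR30 was 2.33-fold lower than control on the standard diet and 1.36-fold lower on the high-fat diet. Within FR30 offspring the high-fat sample was 1.63-fold higher, a log2 difference of 0.71 against 0.67 in the non-normalized table, while in control offspring the log2 difference was -0.07. Of 8776 genes detected on both standard diet samples, 60, Itga1 included, differed by at least as much. The non-normalized table gave log2 differences of -1.18 and -0.42 for FR30 minus control.

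Itgb1, the beta chain that pairs with Itga1 and with most matrix-binding alpha chains, did not follow it. Its signals were 1556.1, 1361.7, 1602.3 and 1503.8, and its log2 difference of FR30 minus control was 0.05 on the standard and 0.15 on the high-fat diet. The upstream sequences of both genes are shown because the chains form 1 receptor and differ in these samples. They are the 250 bases before the gene's start in RefSeq, build GRCr8, for Itga1 chr2:48545284-48545533 on the minus strand and for Itgb1 chr19:73602027-73602276 on the plus strand. Capitals mark GGGCGG on either strand, the core of the GC box.
Itga1: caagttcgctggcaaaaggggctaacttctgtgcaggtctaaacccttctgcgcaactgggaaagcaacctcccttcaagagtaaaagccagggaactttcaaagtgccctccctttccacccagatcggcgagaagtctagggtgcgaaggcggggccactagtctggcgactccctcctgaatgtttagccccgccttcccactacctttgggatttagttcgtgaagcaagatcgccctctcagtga
Itgb1: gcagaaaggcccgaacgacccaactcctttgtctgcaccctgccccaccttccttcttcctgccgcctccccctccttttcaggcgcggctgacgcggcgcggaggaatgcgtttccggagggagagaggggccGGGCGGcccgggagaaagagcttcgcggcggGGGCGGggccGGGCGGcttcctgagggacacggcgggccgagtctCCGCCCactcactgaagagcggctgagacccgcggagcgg

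The Itgb1 window holds GGGCGG 4 times and the Itga1 window 0 times. Of 33469 promoters of this length in the RefSeq table, 30.5% hold it at least once. Neither window holds TATAAA, the TATA box, which 12.9% of all promoters hold. Neither holds TGANTCA, the motif of AP-1, which 6.34% hold. The CCAAT box, found in 34%, is absent from both as well. All 4 motifs were searched on both strands, and overlapping matches were counted separately. A match describes the letters of the window and does not show that a factor binds there.

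The other integrin chains differed less. Itga5, of the fibronectin receptor, read 637.3, 527.9, 569.9 and 490.4, lower on the high-fat diet in both offspring groups by 0.36 and 0.30 in log2. Itgav, which pairs with several beta chains and can release active TGF-beta, read 375.2, 354.8, 346 and 398.4. Itga7, a laminin receptor chain of muscle, read 394.9, 370.7, 371.4 and 360.9, with a STDEV of 67.7 in FR30 standard. Itgb4, of epithelial hemidesmosomes, read 202.6, 212.5, 230.3 and 207.7.

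Itgb7, a homing receptor chain of lymphocytes, read 245 in control standard and 211.2, 205 and 211.8 in the other samples. Control standard was the high sample, and FR30 was 1.59-fold lower on the standard diet. In the non-normalized table the log2 difference was -0.57, just under the threshold, and the intervals of 2 STDEV overlapped. Of 10 lymphocyte markers on the array, 5 were detected in at least 1 sample and 3 in all. The 10 signals summed to 1824 in control standard and 1801.9 to 1901.1 in the other samples, sums that include undetected markers near background. Of the 3, Cd8a read 252.3, 251.9, 297.9 and 228.8, Gzma 221, 249.2, 262.3 and 225, and Cd79b 209.8, 196.7, 205.2 and 206.6. The part of lymphocytes in the Itgb7 values was not tested. The leukocyte chains Itgal, Itgam and Itgad were not detected, Itgb2 passed detection only in FR30 standard, and Itga4 only in control standard.

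The genes named only after a collagen or an integrin were detected on all samples. Col4a3bp, now called Cert1, encodes a ceramide transfer protein. It read 228.3 in control standard, 258.7 in control high-fat, 257 in FR30 standard and 212.1 in FR30 high-fat, so FR30 high-fat was the low sample. Its log2 diet differences were 0.42 in control and -0.68 in FR30 offspring, and the non-normalized table gave 0.42 and -0.67. Itgb1bp2, melusin in muscle, read 234.4, 283.7, 254.5 and 263.9 and was 1.502-fold higher with diet in control offspring. That call was kept under 5 of the 8 alternative settings, and the log2 difference in the non-normalized table was 0.578, just under the threshold. Itgb1bp1, which binds the tail of integrin beta 1, had log2 diet differences of 0.23 and 0.20.

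The diet comparisons in control and FR30 offspring share no sample. Among 34 members detected on all 4 samples, 2 had diet differences at least 2-fold apart, Lox and Col4a3bp. For both, the diet difference was lower in FR30 than in control offspring. Of all genes 2.16% were that far apart, 1.08% higher and 1.09% lower. The call of Lox was kept under all 8 alternative settings and that of Col4a3bp under 6. The diet differences of Itga1 and Loxl4 were 0.78 and 0.71 log2 units higher in FR30 than in control offspring, under 2-fold apart. The median over the 34 members was 0.01, and that over all genes -0.01.

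**Figure D4:**
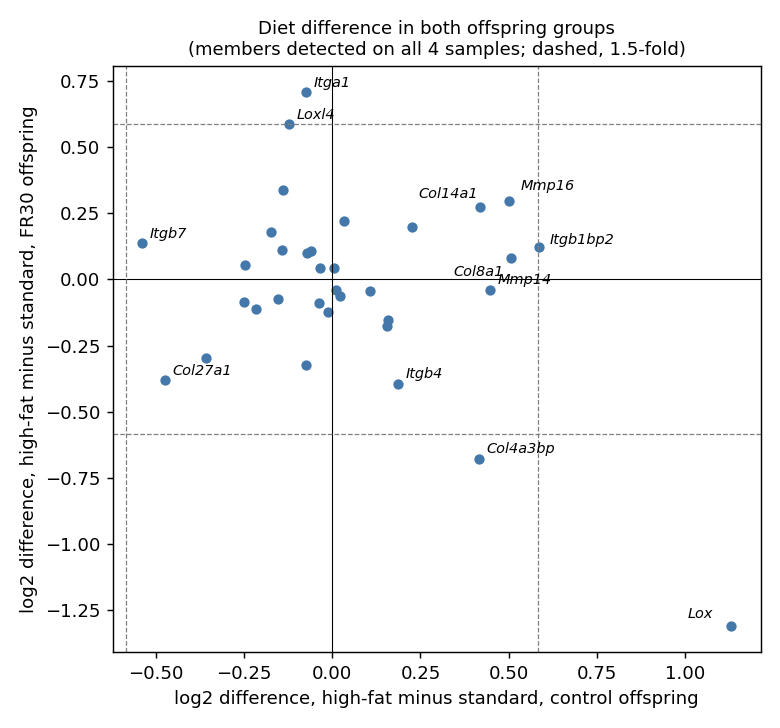
Log2 difference of high-fat minus standard diet in control offspring (horizontal axis) against the same difference in FR30 offspring (vertical axis) for the 34 members detected on all 4 samples, with dashed lines at 1.5-fold. Lox lies alone at 1.13 and -1.31, and Itga1 lies at -0.07 and 0.71.

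The wider matrix pathway was described with 6 lists. Among 29 matrix proteoglycans and glycoproteins on the array, 1 of 20 compared was at least 1.5-fold higher with diet in control offspring and 0 lower, and 3 of 22 were higher and 3 lower in FR30 offspring. Over all genes the shares were 2.55% higher and 3.35% lower in control and 3.77% and 3.36% in FR30 offspring. Spp1, osteopontin, was the 1 higher in control offspring, at 219.8, 293.7, 238.1 and 240.2, a log2 difference of 0.94. In FR30 offspring Ecm1, Eln and Nid1 were higher, and Fbln1, Lum and Postn lower. Lum, lumican, had a STDEV of 61.3 on 252.2 in FR30 standard, and its log2 difference of -0.91 was -0.37 from the non-normalized signals. Its log2 difference of FR30 minus control on the high-fat diet, which does not use that sample, was -0.83, and -0.79 in the non-normalized table. Postn, periostin, rested on FR30 standard alone, at 358.1 with a STDEV of 346.6 against 146.9 to 154.9. In the non-normalized table its 4 signals were 152.8, 154.3, 152.4 and 146.4, and no log2 difference or bound could be given there. Between FR30 and control offspring on the standard diet, 1 of 21 was higher (Postn) and 1 lower (Nid1), against 2.11% and 2.2% of all genes. On the high-fat diet 1 of 21 was higher (Eln) and 3 lower (Fbln1, Lum and Spp1), against 1.82% and 1.56%.

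Elastin (Eln), a substrate of Lox, read 165.3, 192.5, 180.8 and 235.7. It was detected on the high-fat samples only, with log2 bounds of 0.57 in control and 1.05 in FR30 offspring for diet, and FR30 was 0.79 above control on the high-fat diet. In the non-normalized table these values were 0.28, 0.96 and 0.75. The order of the Eln signals differs from that of Lox, which was lowest in FR30 high-fat. Nid1, nidogen, which links laminin to type IV collagen, read 243.9, 233.6, 196.6 and 234.2, low in FR30 standard as Itga1 was, with a log2 difference of -0.83 from control and of -0.89 in the non-normalized table. Dcn, decorin, read 705.7, 585.8, 946 and 711.7 with a STDEV of 444.3 in FR30 standard, and its log2 difference of FR30 minus control on the standard diet was 0.51, but -0.04 from the non-normalized signals.

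Of 17 collagen-processing enzymes compared, 1 was at least 1.5-fold higher with diet in each offspring group and 0 lower, where 5.9% of all genes in control and 7.13% in FR30 offspring passed in either direction. It was Leprel2, now P3h3, a prolyl hydroxylase, with log2 differences of 0.59 and 0.66, and of 0.56 and 0.76 in the non-normalized table. Of the other proteases and inhibitors, Adamts1, which cuts proteoglycans, was higher with diet in control offspring, 374 against 604.3, and A2m, a broad protease inhibitor, in FR30 offspring, 387.6 against 654.3, a log2 difference of 1.06 and of 0.97 in the non-normalized table. No gene of these lists passed 1.5-fold between FR30 and control offspring. Of all genes 4.31% did on the standard and 3.38% on the high-fat diet.

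In the TGF-beta list, Ltbp4, which stores latent TGF-beta in the matrix, was lower on the high-fat diet in both offspring groups. It read 1733.2 and 941.5 in control standard and high-fat and 1434.8 and 870.8 in FR30 standard and high-fat, with log2 differences of -0.99 and -0.82, and of -1.01 and -0.88 in the non-normalized table. Bambi, a decoy receptor, was higher with diet by 1.01 in FR30 offspring (1.04 in the non-normalized table) and 0.41 in control offspring. Smad7, named Madh7 on the array and an inhibitor of the pathway, had a log2 diet difference of -0.63 in FR30 offspring, and of -0.66 in the non-normalized table. Between FR30 and control offspring 0 of 16 members on the standard and 0 of 14 on the high-fat diet passed 1.5-fold. Of all genes 4.31% and 3.38% did, so counts of 0 in so short a list say little.

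Of 16 integrin adaptors and focal adhesion genes compared, only Itgb1bp2 passed 1.5-fold in any comparison. The shares of all genes that did ran from 3.38% to 7.13%. Among other matrix receptors Cd36, which also carries fatty acids, read 923.7, 3320.5, 2392.1 and 3075.8, low in control standard. Its log2 diet difference in control offspring was 2.02, and 2.03 in the non-normalized table. In FR30 offspring it was 0.40, and 0.77 in the non-normalized table. The Cd36 STDEV in FR30 standard was 897.9, and the log2 difference of FR30 minus control on the standard diet was 1.51, and 1.16 from the non-normalized signals. Cd47, a receptor of thrombospondin, read 1721.5, 2212.6, 1447.7 and 1436.1 and was lower in FR30 than in control offspring on the high-fat diet by 0.68 in log2.

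The 47 members detected in no sample read between 97.6 and 181.2, where the background mean fitted from the detection p-values was 153.3 to 153.9. Signals in this range set no level. They include 15 collagen chains, 3 laminin chains, 17 metalloproteinases and 10 integrin subunits, with Loxl2 and Timp3.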

How the data were processed

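RNA was extracted with Trizol and RNeasy columns and labelled as biotinylated cRNA, per the labels' protocols. Per the submitters' processing notes GenomeStudio was used, in a version that no source used here states. The authors deposited a normalized signal intensity, a STDEV and a detection p-value for each gene, per the file headers, and no source used here states how they normalized. The series matrix holds the same intensity within 0.01 for all 21791 genes with values. The authors also deposited a non-normalized intensity table, whose identifiers do not match its values: by identifier log2 Pearson r with the normalized table was 0.0587 to 0.0658. It was put to genes by row order, by an alignment that used all samples but FR30 standard; 20421 genes had 1 row, and r was 0.99857 in FR30 standard.

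The normalized intensity was background-corrected with the normal-exponential model from detection p-values (limma 3.58.1, R 4.3.3, offset 16, fitted on 21215 rows whose p-values were not averaged over probes), quantile-normalized and log2-transformed. Later steps used Python 3.11.15, numpy 2.4.6, pandas 2.3.3, numba 0.67.0 and matplotlib 3.10.9. The row of highest mean signal stood for a gene, with names updated through a RefSeq gene table (GRCr8). Symbols of 70 promoters matched members. Where only 1 of 2 samples detected a gene, the difference is a bound: the undetected side was set to its own value or to the lowest detected value there, whichever was higher. The call threshold was 1.5-fold, and 2-fold between the diet differences. The 8 alternatives changed the background correction, scaling, detection rule, STDEV rules or table. A gene with no value was not analysed here, and 1 called member is not reported here by name. Genes named are mainly members detected on all 4 samples or called, and genes of 6 pathway lists past 1.5-fold or largest in size. Some members that were undetected or detected on only some samples are named too, as are some cell type markers. Members and lists were chosen with earlier results of these data known. The row alignment and the fold calls for genes detected on both samples were tested on simulated data. Bounds and the other steps were not. With 1 sample a group, no precision between samples can be stated.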

Additional observations from a re-analysis of the deposited data

Results flagged for a closer look

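Lox was picked out because its diet differences ran in opposite directions, each past 1.5-fold: the log2 difference of high-fat minus standard diet was 1.13 in control and -1.31 in FR30 offspring. With 1 sample in each group the difference between them was not tested.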

How the results depend on the processing

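No paired analysis was possible because each group has 1 sample and the labels give no replicate numbers. The members' median log2 differences moved furthest in the non-normalized table, from 0.0028 to 0.0949 with diet in FR30 offspring, from 0.0015 to -0.0614 for FR30 minus control on the standard diet and from 0.0051 to 0.1017 for the difference of diet differences. The cause was not tested. Of the calls, 7 of 19 (Lox in 5 comparisons, Itga1 on the standard diet and Mmp14 on the high-fat diet) were kept under all 8. The call of Itga1 with diet in FR30 offspring was lost without background correction alone. No called value changed sign. Without background correction, members called with diet in control offspring were 1 higher and 0 lower in place of 2 and 1, in FR30 offspring 0 higher and 1 lower in place of 2 and 3, FR30 minus control on the standard diet 1 and 1 in place of 3 and 3, and the difference of diet differences had 1 lower in place of 2. With an offset of 50 the same counts were 1 and 0, 1 and 1, 1 and 1, and 1. In the non-normalized table they were 1 and 0 with diet in control offspring, 1 higher with diet in FR30 offspring, and 1 lower for FR30 minus control on the standard diet. A detection p-value under 0.01 left 0 lower with diet in control offspring. Intervals of 2 STDEV apart left 1 higher and 1 lower with diet in FR30 offspring and 1 higher for FR30 minus control on the standard diet. Counts over all genes fell too, with diet in control offspring from 5.9% to 2.61% without background correction and 4% with an offset of 50.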

Other observations

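In the upstream windows of 250 bases, GGGCGG occurred in 38 of the 70 member promoters in the RefSeq table, against 30.5% of all 33469. TATAAA occurred in 12 of 70 against 12.9%, TGANTCA in 8 of 70 against 6.34%, and CCAAT in 17 of 70 against 34%. These are counts of letters in a window and were not tested.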
